A study of Mus musculus with 23 samples.

Results

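The mRNAs of 10 abundant molecular chaperones were followed through the total RNA libraries of hippocampal synapses. They were chosen by name: a row was taken where its gene symbol was Hsp90aa1, Hsp90ab1, Hspa8, Hspa4, Dnaja1, Hspd1, Hsp90b1, Hspa5, Calr or Canx. All 10 were found, each once, among the 48709 gene identifiers of the count tables, and all are protein coding in GENCODE vM21. All positions are in mm10 (GRCm38). Of the cytosolic genes Hsp90aa1 lies at chr12:110690605-110702728 (minus strand), Hsp90ab1 at chr17:45567775-45573271 (minus), Hspa8 at chr9:40800984-40810087 (plus), Hspa4 at chr11:53259814-53300457 (minus) and Dnaja1 at chr4:40722150-40737149 (plus). Hspd1 lies at chr1:55077835-55088243 (minus). Of the reticulum genes Hsp90b1 lies at chr10:86690209-86705509 (minus), Hspa5 at chr2:34771970-34777547 (plus), Calr at chr8:84841850-84846934 (minus) and Canx at chr11:50293961-50325673 (minus). The first 5 encode chaperones of the cytosol and the last 4 chaperones of the endoplasmic reticulum. Hspd1, although listed with them, encodes Hsp60 of the mitochondrial matrix and was therefore kept apart from both compartments. Total RNA was sequenced from synaptosomes and from the perfusion channel of microfluidic chambers in which neurons had formed synapses. Synaptosomes came from pooled hippocampi of male C57B/6J mice at an age of 3 month and were made into 3 libraries with the Illumina TruSeq kit. Chambers held primary hippocampal neurons of CD1 mice, taken at embryonic day 17 and kept for 14 days in vitro. They gave 8 control libraries without stimulation and 3 libraries after 50 mM KCl for 2 h. Each chamber library came from pooled samples and was made with the Takara SMARTer Stranded Pico kit. By the study's account the perfusion channel holds distal synapses and some neurites but no cell bodies and no contact with glia, whereas all 10 astrocyte marker genes had counts in every library, and with bulk RNA fewer cells of a type and less RNA per cell cannot be told apart.

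Chaperones help other proteins to fold and keep them from aggregating. In the cytosol HSP70 proteins bind unfolded stretches with the help of J proteins and nucleotide exchange factors and hand clients on to HSP90. In the endoplasmic reticulum the HSP70 protein BiP (Hspa5) and the HSP90 protein GRP94 (Hsp90b1) serve secreted and membrane proteins, and the lectins calreticulin (Calr) and calnexin (Canx) hold glycoproteins until they are folded. Genes of the reticulum set are classical targets of the unfolded protein response, whereas those of the cytosol and of the mitochondrial matrix respond to heat shock factors. mRNAs of secreted and membrane proteins are translated at the reticulum, which reaches into dendrites.

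Promoter sequence was compared between the compartments. RefSeq windows (GRCm38.p6, 250 bases before to 50 after a start) were found for 7 of the 10 genes and not for Hsp90aa1, Hsp90ab1 and Hspa8. The ER stress element, searched on both strands as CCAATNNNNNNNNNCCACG, was found in 39 of 32841 promoters (0.119%), and among these were all 4 reticulum members. Hsp90b1 held it at 2 places. These windows are shown 5′ to 3′ on the strand of the gene with the element in capitals, since none of the other 3 genes with a window held the element.
Hsp90b1 (GRCm38.p6 chr10:86705395-86705694, minus strand): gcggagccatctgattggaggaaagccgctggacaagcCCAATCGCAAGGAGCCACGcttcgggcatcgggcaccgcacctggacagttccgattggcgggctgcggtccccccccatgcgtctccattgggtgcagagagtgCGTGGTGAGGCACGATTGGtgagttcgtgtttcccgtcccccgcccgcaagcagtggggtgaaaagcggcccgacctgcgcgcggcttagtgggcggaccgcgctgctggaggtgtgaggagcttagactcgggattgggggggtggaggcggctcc
Hspa5 (GRCm38.p6 chr2:34771840-34772139, plus strand): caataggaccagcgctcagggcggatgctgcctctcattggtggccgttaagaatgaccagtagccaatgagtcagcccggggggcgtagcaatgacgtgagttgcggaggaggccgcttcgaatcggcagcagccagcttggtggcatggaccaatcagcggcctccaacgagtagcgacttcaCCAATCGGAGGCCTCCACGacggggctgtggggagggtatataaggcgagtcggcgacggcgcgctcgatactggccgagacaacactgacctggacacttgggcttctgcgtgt
Calr (GRCm38.p6 chr8:84846882-84847181, minus strand): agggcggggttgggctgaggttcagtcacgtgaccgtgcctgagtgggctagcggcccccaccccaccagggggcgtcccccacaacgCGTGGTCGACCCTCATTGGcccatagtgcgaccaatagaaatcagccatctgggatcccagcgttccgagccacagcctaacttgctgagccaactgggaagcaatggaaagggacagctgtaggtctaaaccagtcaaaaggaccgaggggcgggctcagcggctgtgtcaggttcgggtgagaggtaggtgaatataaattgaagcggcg
Canx (GRCm38.p6 chr11:50325624-50325923, minus strand): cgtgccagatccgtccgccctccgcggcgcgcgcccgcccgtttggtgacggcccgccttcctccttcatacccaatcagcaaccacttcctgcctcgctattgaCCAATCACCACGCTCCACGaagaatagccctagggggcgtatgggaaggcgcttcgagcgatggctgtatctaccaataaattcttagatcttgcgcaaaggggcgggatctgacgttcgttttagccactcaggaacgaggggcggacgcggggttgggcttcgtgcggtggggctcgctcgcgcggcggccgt
The ER stress element began 65 bases before the start in Hspa5, 145 in Canx, 162 in Calr, and 212 and 107 in Hsp90b1. In Calr and at the nearer site of Hsp90b1 it lay on the opposite strand.

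Heat shock elements were searched as GAANNTTC and TTCNNGAA, which are found in 7.86% and 8.52% of all promoters and so are common. Hspd1 held both forms in 1 overlapping run, and Dnaja1 held GAANNTTC once in 1 of its 3 windows. Their windows are shown with the elements in capitals.
Hspd1 (GRCm38.p6 chr1:55087883-55088182, minus strand): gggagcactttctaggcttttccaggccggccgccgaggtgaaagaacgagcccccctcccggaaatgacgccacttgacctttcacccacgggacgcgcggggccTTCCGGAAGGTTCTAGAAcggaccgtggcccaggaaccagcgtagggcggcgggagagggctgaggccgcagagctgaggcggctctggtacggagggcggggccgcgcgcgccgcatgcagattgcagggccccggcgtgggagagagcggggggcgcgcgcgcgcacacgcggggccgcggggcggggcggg
Dnaja1 (GRCm38.p6 chr4:40722218-40722517, plus strand): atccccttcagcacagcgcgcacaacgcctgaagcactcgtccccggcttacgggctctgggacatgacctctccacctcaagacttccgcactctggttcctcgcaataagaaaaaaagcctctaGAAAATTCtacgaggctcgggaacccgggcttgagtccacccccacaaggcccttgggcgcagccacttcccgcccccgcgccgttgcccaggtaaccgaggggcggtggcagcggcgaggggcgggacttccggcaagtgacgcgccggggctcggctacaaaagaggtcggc
The window of Hspa4 held none of the elements, and neither did the second window of Hspd1 or the other windows of Dnaja1. A match of letters is a description only, and no binding was measured.

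Libraries differed in what they held. Synaptosome libraries had 14714196 to 16667516 counts, of which 11.0% to 12.1% lay on protein coding genes. Control chambers had 722529 to 48281227 counts with 69.9% to 97.3% on protein coding genes, and KCl chambers had 2632490 to 80883504 counts with 68.1% to 74.9%. All 11 neuron and synapse markers had counts in every library. The control library sc3 stood apart and had the largest protein coding share. Its summed astrocyte markers reached 16341 CPM (counts of a gene scaled to the same library total for all libraries), of which 7929 CPM were Aldoc. The 8 microglia markers summed to 15.5 CPM in sc3, the lowest of the controls, with Csf1r at 0.394 CPM. Of these markers 1, C1qb (9.86 CPM), was nevertheless higher than in any other control (at most 9.69 CPM). In the other controls Aldoc was at most 191 CPM and the astrocyte sum at most 4371 CPM. In sc3 8 of 10 astrocyte markers were higher than in any other control, but Slc1a2 (300.3 CPM) was under the control median of 526.4 CPM and Sparcl1 (1774 CPM) under the maximum of 2483 CPM. Oligodendrocyte markers were also high in sc3, 7 of 8 above every other control with a sum of 2018 CPM against at most 408 CPM, as were 5 of 11 neuron markers. Predicted gene models of satellite repeat sequence took 0.0182% of the counts in sc3 and up to 8.84% in the control Ctrl4, the shallowest library, in which the members had only 33 to 167 counts each. Control ranges of the CPM and pair ratios of the members, where set by sc3 or Ctrl4, are therefore also given without them. Ranges of level per length, of pseudogene counts and of further chaperone genes are over all 8 controls.

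In synaptosomes 3 of 4 reticulum chaperones but only 1 of 5 cytosolic ones, Hsp90ab1, reached the detection cutoff. At the study's cutoff of a mean of 50 CPM, 4 of 10 members were detected, against 1.07% of all 21695 protein coding genes. They were Hsp90ab1, Canx, Hsp90b1 and Calr. Hsp90ab1, the constitutive HSP90 of the cytosol, was at 90.3, 96.7 and 87.3 CPM in the 3 pools (91.4 ± 4.76, SD, n = 3). The membrane lectin Canx had 93.7, 80.996 and 83.9 CPM (86.2 ± 6.62). Both lay between ranks 81 and 130 among protein coding genes in every pool. Hsp90b1, the HSP90 of the reticulum, had 61.4, 56.0 and 68.2 CPM (61.9 ± 6.11). Calr, the soluble lectin, had 49.1, 46.7 and 65.4 CPM (53.7 ± 10.2), so that 2 of its 3 pools were under 50 and without pool3 it missed the cutoff.

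The other members stayed under the cutoff in every synaptosome pool. Hspa5, the HSP70 of the reticulum, came nearest with 40.6, 38.1 and 32.2 CPM (37.0 ± 4.31). Hspa4, a nucleotide exchange factor of the HSP110 kind, had 22.6, 22.5 and 17.6 CPM (20.9 ± 2.86). Hspa8, the constitutive HSP70 that also uncoats clathrin vesicles, had 16.4, 18.2 and 23.6 CPM (19.4 ± 3.72). These levels did not overlap with those of any reticulum member. Hsp90aa1, the inducible HSP90, had 8.29, 9.12 and 7.12 CPM (8.18 ± 1.01). The mitochondrial Hspd1 had 4.28, 3.96 and 3.83 CPM, and Dnaja1, a J protein partner of HSP70, had 4.08, 3.78 and 2.68 CPM, from 44 to 63 counts a pool. Scaled to the protein coding total alone, 8 of 10 members had a mean CPM over 50, all but Dnaja1 (30.6 ± 5.92) and Hspd1 (35.2 ± 0.977), and 13.5% of protein coding genes did so.

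All 10 members reached the cutoff of the chambers, a mean of 100 CPM, in control and in KCl chambers, where 6.43% and 7.09% of protein coding genes did. Their levels spread widely between libraries. In the 8 controls Hsp90ab1 ranged from 231 CPM in Ctrl4 to 2347 CPM in C11 (median 1079) and lay at ranks 6 to 62 among protein coding genes. Hsp90aa1 ranged from 166 to 1163 CPM (median 528). Hspa8 ranged from 134 to 1069 CPM (median 634). These 3 cytosolic members were the only ones at 100 CPM or more in every control, and without sc3 and Ctrl4 so were Hspa4, Hsp90b1 and Calr. Ctrl4 gave the lowest value of Hsp90ab1, Hsp90aa1, Hspa8 and Hspa4, and in the 6 controls without sc3 and Ctrl4 their lowest values were 743, 447, 276 and 168 CPM. Hspa4 followed with 72.0 to 472 CPM (median 204), and Dnaja1 had 38.8 to 435 CPM (median 82.9). The Dnaja1 maximum was that of sc3, and the other 7 controls had 38.8 to 110 CPM (mean 76.1), which is under the cutoff.

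The reticulum members took middle places in control chambers. Canx ranged from 85.8 to 602 CPM (median 317) and Calr from 52.6 to 626 CPM (median 206). Hsp90b1 ranged from 69.2 to 592 CPM (median 197). Hspa5 ranged from 67.8 CPM in Ctrl4 to 446 CPM in sc3 (median 172). Ctrl4 was the lowest for all 4, and in the other 6 controls Canx had 89.1 to 602 CPM, Calr 138 to 626 CPM, Hsp90b1 165 to 592 CPM and Hspa5 93.95 to 309 CPM. Of the reticulum members, Hspa5 alone was highest in sc3, as were Dnaja1 and the mitochondrial Hspd1. Hspd1 ranged from 20.4 to 335 CPM (median 65.5), and from 20.4 to 176 CPM in the 6 controls without sc3 and Ctrl4. Without sc3 Hspd1 had a mean of 78.3 CPM and Hspa5 of 170 CPM, so that 8 members were left at the cutoff. The part of the astrocyte and oligodendrocyte RNA of sc3 in these values was not tested.

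**Figure D1:**
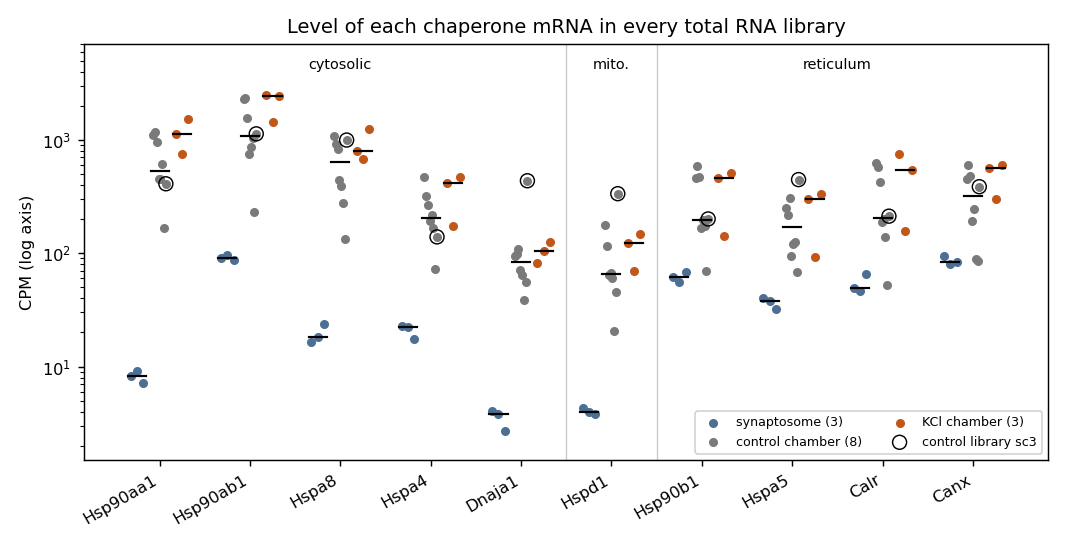
Level of each chaperone mRNA in CPM on a log axis. Points are libraries (3 synaptosome pools, 8 control and 3 KCl chambers), short lines are group medians, and the ring marks the control sc3. Synaptosome points of the cytosolic members other than Hsp90ab1 lie under those of all reticulum members, whereas Hsp90ab1, Hsp90aa1 and Hspa8 have the highest medians in chambers.

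Ordered by level per transcript length (counts divided by exonic length and scaled over protein coding genes to the same total in every library, as in TPM), Hsp90ab1 came first in all 3 groups. Its level per length was 907 ± 94.5 (SD, n = 3) in synaptosomes, 2009 ± 1484 (n = 8) in controls and 3754 ± 1499 (n = 3) after KCl. In synaptosomes Calr, Canx, Hsp90b1 and Hspa5 took the next places with levels per length of 556, 544, 456 and 259. Calr and Canx overlapped, whereas Canx, Hsp90b1 and Hspa5 did not overlap with their next neighbours. Hspa8 (135) and Hspa4 (112) overlapped with each other, and Hsp90aa1 was at 61.8. In controls the places after Hsp90ab1 went to Hsp90aa1, Hspa8, Calr, Hsp90b1 and Canx with levels per length of 796, 675, 507, 347 and 318. Ranges of all neighbours overlapped there. Hsp90ab1 was nevertheless over Hsp90aa1 in 8 of 8 controls, Hspa8 over Calr in 8 of 8, and Calr over Hsp90b1 in 8 of 8, whereas Hsp90b1 was over Canx in 5 of 8. Dnaja1 was last in every group.

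The balance between compartments was taken within each library as the log2 ratio of summed counts, 5 cytosolic over 4 reticulum members, which depends neither on depth nor on the other genes. In synaptosomes it was −0.79, −0.56 and −0.85 in the 3 pools (−0.73 ± 0.15, SD, n = 3), so that the cytosolic sum was 0.554 to 0.678 times the reticulum sum. In the 8 controls it ranged from 1.15 to 2.01 (1.43 ± 0.27), which is 2.22 to 4.04 times the reticulum sum. In the 3 KCl libraries it was 1.23, 2.19 and 1.54 (1.65 ± 0.49). The sign was the same in all libraries of a preparation. With counts divided by exonic length the log2 ratio was −0.56 ± 0.17, 1.48 ± 0.28 and 1.73 ± 0.53 in the same order. The values of KCl and control chambers overlapped, with KCL1 inside the range of controls, KCL4 likewise and only KCL1a above it. Synaptosomes and chambers were not tested against each other because strain, age, preparation and kit all differ between them and their parts cannot be told apart.

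**Figure D2:**
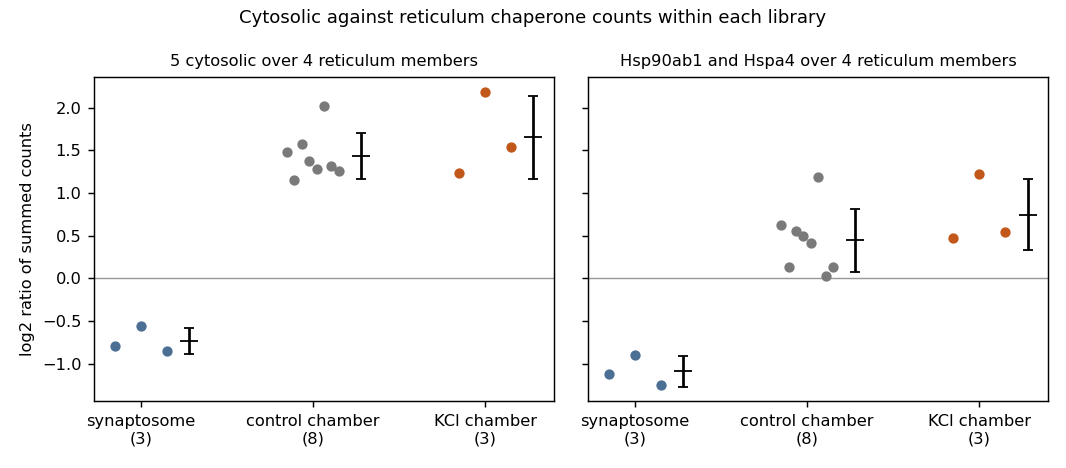
log2 ratio of the summed counts of cytosolic to reticulum chaperones in each library, left with all 5 cytosolic members and right with Hsp90ab1 and Hspa4, the 2 with little or no near-identical copy in the genome. Points are libraries, and bars are the mean and SD of each group. The 3 synaptosome pools lie under 0 and all 11 chamber libraries over 0 in both panels.

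Near-identical copies lie beside this difference. Several chaperone genes have processed pseudogenes, and a read that fits a gene and its copy equally well may be placed at either or dropped, depending on settings of the aligner and counter that are not given in the sources used here. Of the longest protein coding transcript, the share found elsewhere in GRCm38 at 95% identity or more, over at least 100 bases, was 92.2% for Hspd1, 87.9% for Hspa8, 84.5% for Hsp90aa1 and 38.4% for Dnaja1. It was 8.04% for Hsp90b1 and 6.83% for Hsp90ab1. Hspa4, Hspa5, Calr and Canx had no such copy. The 4 members with the largest share of copied sequence were thus the cytosolic and mitochondrial members Hspd1, Hspa8, Hsp90aa1 and Dnaja1, and they had the 4 lowest mean CPM in synaptosomes, where Hspa8 overlapped with Hspa4. A stretch of coding exon of Hsp90aa1 and Hspd1 is shown over a near-identical copy, with the bases that differ in capitals, because it shows how little separates them. Hits on a chromosome that was left out were not ranked, so a closer copy may exist.
Hsp90aa1, exon 3 (GRCm38.p6 chr12:110695328-110695417, minus strand): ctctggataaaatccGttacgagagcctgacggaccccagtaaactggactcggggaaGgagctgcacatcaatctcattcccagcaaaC
Gm12346, copy of Hsp90aa1 (GRCm38.p6 chr11:77293659-77293748, plus strand): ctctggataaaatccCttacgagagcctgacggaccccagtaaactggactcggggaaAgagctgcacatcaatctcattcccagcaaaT
Hspd1, exon 3 (GRCm38.p6 chr1:55084660-55084749, minus strand): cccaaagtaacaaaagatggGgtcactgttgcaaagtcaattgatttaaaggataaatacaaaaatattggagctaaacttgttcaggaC
Hspd1-ps3, copy of Hspd1 (GRCm38.p6 chr11:41498947-41499036, plus strand): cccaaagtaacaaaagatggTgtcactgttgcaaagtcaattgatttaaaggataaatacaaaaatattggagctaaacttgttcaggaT
Over the whole exon the identity was 99.2% for Hsp90aa1 and 98.8% for Hspd1, each with 3 differences. For the longest coding exons of Hspa8 (556 bases) and Dnaja1 (228 bases) the best copy had none. The copy Gm12346 is a transcribed processed pseudogene that overlaps the gene Ssh2, and Hspd1-ps3 is a processed pseudogene.

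The tables differed in the counts they gave to such copies. In synaptosomes the annotated pseudogenes of Hspa8 took 4 counts in all 3 pools, those of Hsp90aa1 and Dnaja1 1 count each and that of Hspd1 2 counts. In control chambers the pseudogenes of Hspa8 held 1.65% to 12.6% of the counts of gene and copies together, and those of Hsp90aa1 0.575% to 21.6%. Over all 7240 processed pseudogene models there were 0.0323 to 0.0366 counts per 100 counts on protein coding genes in synaptosomes, 0.382 to 4.23 in controls and 0.508 to 2.28 in KCl chambers. With Hsp90ab1 and Hspa4 alone as cytosolic members, an alternative added after these values were seen, the log2 ratio to the reticulum sum was −1.09 ± 0.18 in synaptosomes, 0.45 ± 0.37 in controls and 0.75 ± 0.42 after KCl. Every synaptosome pool was below 0 and every chamber library above 0, the lowest being sc3 at 0.03. The part of the copies in the low synaptosomal levels of Hspa8, Hsp90aa1, Dnaja1 and Hspd1 was not tested.

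Related members were also set against each other within a library, which leaves depth and the rest of the library out of the value. Ratios of counts are given, and since gene lengths stay the same they compare libraries, not genes. The inducible Hsp90aa1 was 0.0815 to 0.0944 times Hsp90ab1 in synaptosomes, 0.363 (sc3) to 0.719 times (Ctrl4) in controls and 0.454 to 0.624 times after KCl, and the other 6 controls lay between 0.479 and 0.606. The reticulum HSP90 gene Hsp90b1 was 0.580 to 0.781 times the cytosolic Hsp90ab1 in synaptosomes, 0.168 to 0.299 times in controls and 0.0980 to 0.210 times after KCl. Neither gene of that pair has more than 8.04% of its transcript in copies. Canx was 0.838 to 1.04 times Hsp90ab1 in synaptosomes and at most 0.371 times in any chamber library (0.303 in controls without Ctrl4 and sc3). Among the HSP70 genes, Hspa5 was 1.37 to 2.47 times Hspa8 in synaptosomes, 0.212 to 0.505 times in controls, at most 0.454 times without Ctrl4 and sc3, and 0.138 to 0.379 times after KCl. Hspa4, which has no copy, was 0.201 to 0.2498 times Hsp90ab1 in synaptosomes and 0.123 to 0.311 times in controls (0.136 to 0.258 without sc3 and Ctrl4), and these ranges overlapped, whereas the KCl libraries, at 0.120 to 0.192 times, were all under the synaptosomes. Within the reticulum Calr was 0.525 to 0.779 times Canx in synaptosomes, 0.550 to 1.55 times in controls and 0.520 to 1.34 times after KCl, so that the groups overlapped. Without sc3 and Ctrl4 the controls were at 0.807 to 1.55 and no longer overlapped with the synaptosomes.

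**Figure D3:**
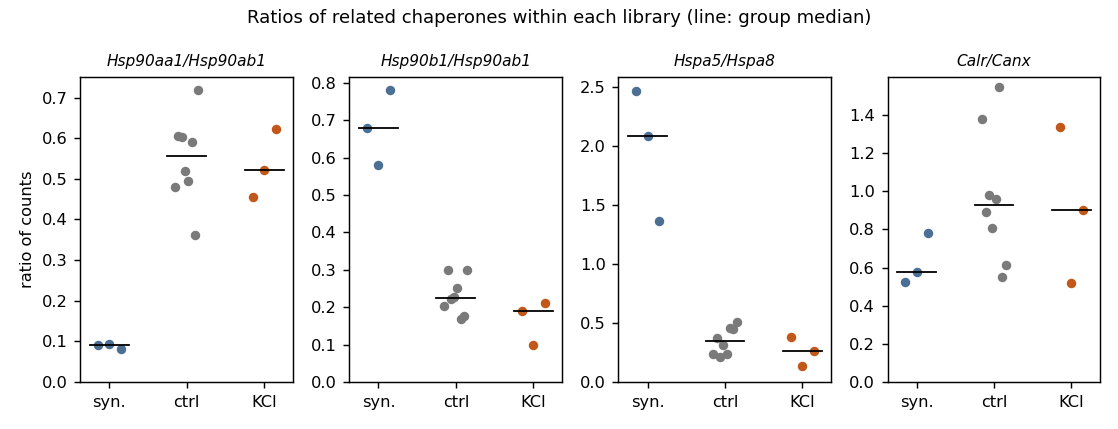
Ratio of the counts of related chaperone genes in each library on axes that start at 0 (syn., synaptosome; ctrl, control chamber), with a line at each group median. Synaptosome points lie below all chamber points for Hsp90aa1/Hsp90ab1, above them for Hsp90b1/Hsp90ab1 and Hspa5/Hspa8, and among them for Calr/Canx.

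KCl, which depolarizes neurons, was compared with control chambers by edgeR's quasi-likelihood test on the counts of all genes. With all 11 libraries none of the 10 members passed an adjusted p of 0.05 with a log2 fold change beyond 1. Of all 28232 genes tested 1 was called up (0.00354%) and 0 were called down, while 1738 genes had an unadjusted p under 0.05. DESeq2 called 214 genes up and 117 down of 18054 with an adjusted p, and no member, but it gave Dnaja1 no p. Hsp90ab1 had 2462, 1446 and 2438 CPM after KCl against a median of 1079 in controls, a log2 fold change of 1.80 ± 1.05 (SE) with an adjusted p of 0.880 by edgeR. All 3 KCl libraries were over that median, but the controls C1, C2 and C11 were above the lowest of them. Hsp90aa1 had 1119, 755 and 1521 CPM after KCl (log2 fold change 2.13, 95% interval 0.18 to 4.07, edgeR adjusted p = 0.770). The lectin Calr had 749, 157 and 545 CPM (2.2, 0.22 to 4.18, edgeR adjusted p = 0.765), and its lowest KCl library, KCL1a, lay under 6 of the 8 controls. Hspa4 had 417, 174 and 468 CPM (2.07, 0.34 to 3.79, edgeR adjusted p = 0.733). These 3, Hsp90aa1, Calr and Hspa4, were the members with an unadjusted p under 0.05.

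The remaining members had intervals that include 0. The log2 fold change was 1.83 for Hsp90b1 (465, 142 and 513 CPM after KCl), 1.54 for Canx (561, 302 and 605 CPM), 1.11 for Hspa8 (797, 671 and 1256 CPM) and 0.39 for Hspa5 (302, 92.3 and 335 CPM). It was −0.22 for Hspd1 (122, 70.3 and 148 CPM) and −0.78 for Dnaja1 (82.7, 104 and 127 CPM). Hspa5, the best known target of the unfolded protein response, thus had an interval from −1.54 to 2.32. Over the list the median log2 fold change was 1.67, for 5 cytosolic members 1.80 and for 4 reticulum members 1.69. Over all genes tested it was −0.53, and over the 1425 genes with a control mean of at least 100 CPM it was 1.02, with 76.7% of them over 0 compared with 8 of 10 members. No member had its 3 KCl libraries over or under all 8 controls, where 0.365% and 0.868% of genes did. Over the 3 controls with letters in their titles all 3 KCl libraries were higher for Hsp90aa1, Hsp90ab1 and Hspa4, as they were for 2.65% of genes, and lower for no member, against 7.07% of genes. These shares are over all genes tested, whatever their level.

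Whether members were called depended on the control sc3. All KCl titles carry letters, as do 3 controls (Ctrl3, Ctrl4 and sc3), whereas 5 controls have bare numbers, and with a term for this difference the fold change rests on the 3 lettered controls. Without sc3 the same test called 7 of 10 members up and none down, together with 1013 genes up (3.61% of 28077) and 85 down (0.303%). The median log2 fold change of all genes was −0.41 in this fit. Among the 1425 genes with a mean of at least 100 CPM over all 8 controls, 463 were called up (32.5%). That choice of genes includes sc3, which the fit leaves out. The 7 were Canx (log2 fold change 3.66, edgeR adjusted p = 0.0137), Calr (3.54, 0.0231), Hspd1 (2.98, 0.0235), Hspa8 (3.35, 0.0318), Hspa4 (2.78, 0.0391), Dnaja1 (2.29, 0.0454) and Hsp90b1 (2.87, 0.0467). Hspa5, Hsp90aa1 and Hsp90ab1 had adjusted p of 0.0527, 0.0840 and 0.109 in edgeR. This fit sets the KCl libraries against Ctrl3 and Ctrl4 alone, of which Ctrl4 is the shallowest library. Over these 2 all 3 KCl libraries were higher for 8 members, as for 6.48% of genes, and lower for none, as for 36.8% of genes. The exceptions were Hsp90b1 and Hspa5, through KCL1a. Both shares are over all genes tested, and none was taken over genes of a level like that of the members. Without sc3 and Ctrl4, an alternative added later, 1 member, Hspd1, was called up (3.65, edgeR adjusted p = 0.0410), with 1147 genes up (4.6%) and 115 down (0.461%). That fit leaves Ctrl3 alone among the lettered controls, in which Hspd1 had its lowest level (20.4 CPM), and assumes that this lone library varies like the others. Without sc3 and without the term for titles no member was called, and of 28077 genes only 2 were called up and 0 down.

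Set against the 5 controls with bare numbers, no member was called, and of 23508 genes tested only 7 were called up and 0 down. The log2 fold changes of the members were 0.37 for Hsp90b1 to 0.83 for Hsp90aa1, with the median of all genes at −0.08. All 10 were over 0. Dnaja1 (0.61) and Hspd1 (0.61) had another sign there than with all controls, as they had without sc3. Levels of the members moved with the satellite share of the libraries: the 4 controls with 5.13% to 8.84% of counts on satellite models held 980 to 2799 CPM of the 10 members together, and the 4 with 0.0182% to 2.07% held 4687 to 6985 CPM. Of the KCl libraries KCL1a, with 5.76%, held 3912 CPM, and KCL1 and KCL4, with 2.08% and 0.614%, held 7075 and 7955 CPM. The part of this difference between libraries in the fold changes was not tested.

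**Figure D4:**
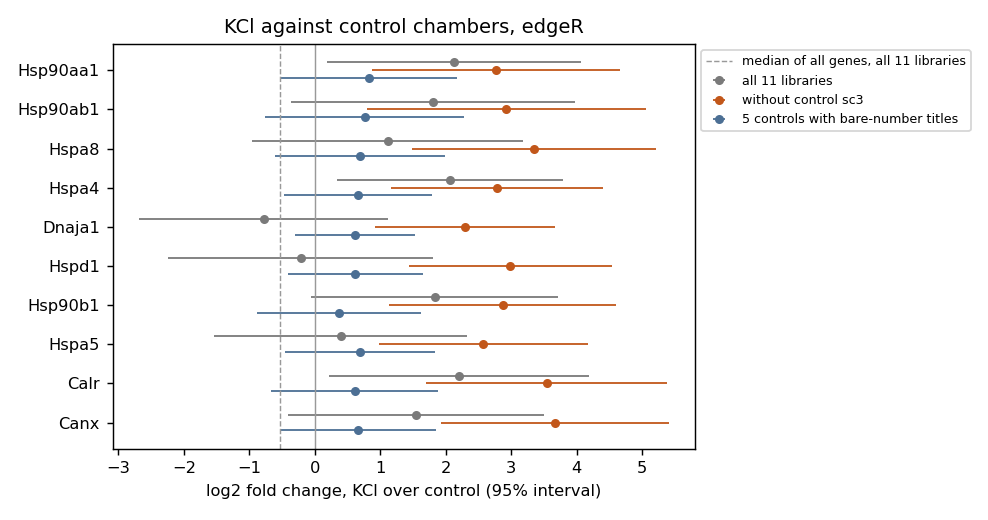
log2 fold change of each member, KCl over control chambers, with 95% intervals from edgeR, for all 11 libraries, without the control sc3 and with the 5 controls of bare-number titles only. The dashed line is the median of all genes with all libraries (−0.53). Intervals without sc3 lie over 0 for all 10 members, and those against bare-number controls include 0 for all 10.

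Further genes of the chaperone network were read from 10 lists with 94 genes, all of them in the tables. None reached the cutoff in synaptosomes, where 1.07% of all protein coding genes did. In control chambers 16 did (17.02%) and in KCl chambers 18 (19.1%), against 6.43% and 7.09% of all protein coding genes. The control means include sc3, and some genes reached the cutoff only through it. Cct5, for example, had a control mean of 105 CPM, with 324 CPM in sc3 and a control median of 73.9 CPM. The count without sc3 was not taken. With all libraries none of the 93 tested was called in KCl against control chambers. Without sc3 11 (11.8%) were called up and none down. The share called up was 3.61% over all genes and 32.5% over those with a mean of at least 100 CPM in all controls, sc3 included. The 11 were Hsph1, Dnajc5, Stip1, Cdc37, Ptges3, Bag1, Cct2, Cct6a, Hspa9, Pdia3 and Atf4. CPM of synaptosomes and chambers have different bases, since the protein coding share of the counts was far smaller in synaptosomes. Closest to the members stood Hsph1, an HSP110 protein, at 17.2 ± 2.77 CPM (SD, n = 3) in synaptosomes and 337 ± 212 CPM (n = 8) in controls. Dnajc6, the J protein auxilin of clathrin uncoating, had the highest synaptosomal level of the named J proteins at 45.6 ± 2.53 CPM, against 180 ± 91.6 CPM in controls. Hspa9, the HSP70 of mitochondria, had 14.66 ± 1.65 and 267 ± 150 CPM in the same groups. Of the cochaperones St13, which joins HSP70 and HSP90, had 12.6 ± 0.843 and 148 ± 53.4 CPM, and of the chaperonin TRiC, which folds actin and tubulin, Cct7 had 8.18 ± 1.48 and 144 ± 109 CPM, with its maximum of 399 CPM in sc3.

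Lists of the reticulum gave lower levels in chambers than the 4 members. None of 11 further reticulum chaperones and cochaperones reached 100 CPM in controls. Hyou1, an HSP110-like partner of BiP, led them with 96.2 ± 45.6 CPM and had 21.9 ± 2.96 CPM in synaptosomes. Pdia3, the disulfide isomerase that works with calnexin and calreticulin, had 134 ± 77.9 CPM in controls and 30.4 ± 1.21 CPM in synaptosomes. Of 13 genes of glycoprotein folding and degradation, Sel1l of the degradation complex was highest of those named in synaptosomes (36.0 ± 4.59 CPM). It had 138 to 207 CPM in KCl against 34.8 to 137 CPM in control chambers (log2 fold change 1.17, not called). Cct2 of TRiC likewise had 127 to 154 CPM in KCl against 23.6 to 126 CPM in control chambers, with sc3 the highest control. Of all genes tested, 0.365% had all 3 KCl libraries over all 8 controls. Of 9 sensors and transcription factors only Atf4 reached the cutoff in chambers, at 162 ± 106 CPM in controls and 209 ± 141 CPM after KCl, whereas synaptosomes had 3.89 ± 0.691 CPM. Small heat shock proteins stayed low except in sc3, where Cryab had 490 CPM against a median of 15.1 CPM in all controls.

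Genes most like Hsp90ab1 and Hspa5 over the 11 chamber libraries were sought as those with the smallest root mean square difference of centred log2 (CPM + 1), among 1468 genes with a mean of at least 100 CPM. For Hsp90ab1 they were its paralogue Hsp90aa1 (0.257), Ywhae (0.277) and Hnrnpu (0.282), where the median gene was at 0.877. Calr, Hsp90b1, Hspa4 and Hspa8 were at 0.426 to 0.436 from it, and Dnaja1 at 1.06. For Hspa5 the nearest were Clstn3 (0.265), Pdia3 (0.266) and Psap (0.271), where the median gene was at 0.848, and the other members were at 0.541 to 0.765. Of the members Hspa8 was nearest to it. These distances share libraries and depth and are given as a description.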

How the data were processed

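For total RNA, the authors used STAR 2.5.2b with the mm10 genome, and featureCounts 1.5.1 gave the counts per gene. The strand setting, the handling of reads with several places and the annotation release are not given in the sources used here. The deposited tables hold raw counts per gene and library as the authors made them, and CPM that the authors scaled to the total of the table, which were recomputed here and were equal. The totals of the count tables differ from the mean numbers of unique reads that the study states, and how its reads became these counts was not tested. Another 64 per-sample columns (small RNA and lncRNA tables) and the authors' own comparisons, which hold fold changes and p-values, were not used. Groups came from the sample labels. The control columns C1 and C11 matched a group but no single sample.

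KCl and control chambers were compared with edgeR 4.0.16 (TMM, filterByExpr, quasi-likelihood test, a term for the kind of title, Benjamini-Hochberg) in R 4.3.3. Genes were called where the log2 fold change was beyond 1 and the adjusted p did not exceed 0.05. The script was tested on simulated data with a smaller spread between libraries than the common dispersion of 1.51 fitted to these chambers. Recovery of changes at that larger spread was not tested. Alternatives were DESeq2 1.42.0, other scalings, filters and controls, and leaving out each library. Ratios, cutoffs, pair ratios and distances are descriptions with no test. Pseudogene copies were sought with blastn in GRCm38. Python 3.11.15 with pandas 2.3.3 did the rest.

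All 10 members are named, and of each further list at most 4 genes of highest mean in controls and any called gene. Genes called only without sc3 were chosen after their values were seen. The members and lists were chosen with earlier results of these data known. The labels do not say that libraries of a group came from separate cultures, so p-values measure the spread between these libraries. Counting error grows with low counts, and reads carry no molecular identifiers.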

Additional observations from a re-analysis of the deposited data

Results flagged for a closer look

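Among the 8 control chambers 21 sets of values were looked at for a library far from the others (the 10 members, the compartment ratio and 10 pair ratios), and 2 held one, where chance gives about 1 in 20. Dnaja1 had 435 CPM in sc3, and the next control had 110 CPM, a gap of 0.821 of the whole range. The ratio of Hspa4 to Canx counts was 1.88 in Ctrl3, where Canx had 89.1 CPM, and 1.04 in the next control, a gap of 0.554 of the range. sc3 is also the control with the highest astrocyte and oligodendrocyte marker sums, and the part of these in the Dnaja1 value was not tested.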

How the results depend on the processing

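The number of members called in KCl against control chambers was 0 to 7 when each library was left out in turn, 7 without sc3 and 0 in the other 10 cases, and 1 without sc3 and Ctrl4. With the title number as a replicate block no member and no gene was called (30 genes had an unadjusted p under 0.05), and the deviations of libraries of 1 number correlated at 0.08, −0.18 and −0.36, so the numbers were not taken as pairs. Calls over all genes moved with the setting: 40 up and 16 down without the filter on low counts, 214 and 117 with DESeq2, 45 and 277 with DESeq2 and a factor of unwanted variation, 7 and 0 against bare-number controls, 0 against lettered controls or without the title term, and 2 up without sc3 and that term. With any other single library left out, 0 to 7 genes were called up. The study also used DESeq2 with removal of unwanted variance and reported many mRNAs as increased. The fit of that kind here had 1 factor and no title term. In it no member was called, and the log2 fold changes of the members ran from 0.63 for Dnaja1 to 1.19 for Hsp90ab1. The fits without sc3 and a further library or term, and the ratio with Hsp90ab1 and Hspa4 alone, were chosen after seeing the data.

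Dnaja1 turned from −0.78 to 0.63 with the factor of unwanted variation, 0.61 against bare-number controls, 0.96 with the replicate block, 2.55 without sc3 and Ctrl4 and 1.02 without sc3 and the title term. Hspd1 turned from −0.22 to 0.79, 0.61, 0.55, 3.65 and 1.09 in the same order, and to 0.29 without the title term. With each library left out the log2 fold change ranged from −1.38 to 2.29 for Dnaja1, −0.87 to 2.98 for Hspd1 and −0.30 to 2.57 for Hspa5. Hspa5 was below 0 without Ctrl3, Ctrl4 or KCL4. Of 210 values over the 10 members, 17 had another sign. The cause was not tested.

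Members at the cutoff in synaptosomes were 3 to 4 with each pool left out, 0 at 100 CPM and 8 when scaled to protein coding counts. In control chambers they were 8 to 10, and 3 with every library at the cutoff. In KCl chambers they were 8 to 10, with 8 without KCL4. The log2 ratio of cytosolic to reticulum counts kept its sign in each group under every alternative. In synaptosomes it was −0.82 to −0.68 with each pool left out, −1.72 as a difference of mean log2 (CPM + 1), −0.56 per length, −1.55 without the highest member of each compartment and −1.09 with Hsp90ab1 and Hspa4 alone. In controls it was 1.35 to 1.47 with each library left out, 0.67 as a difference of means and 0.45 with those 2 genes, and in KCl chambers 1.39 to 1.86, 0.78 and 0.75. Depth limits the members most in Ctrl4.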
